A study of Mus musculus with 21 samples.

Results

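Esr1 encodes oestrogen receptor alpha, and it was read here by 11 of the 45220 features (probe spots) of a mouse microarray. The features were taken as all those that the platform annotation assigned to Esr1, and each was described alone and in the mean of the 11. Esr1 was chosen by its measured log2 ratios on these arrays, which were already known to differ between the transgenes. Its levels by transgene are therefore described without a test.

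The arrays measured mammary tumours from 20 transgenic mice, 1 tumour per mouse, with 5 mice for each transgene. The ATX tumours came from MMTV-ATX mice, which carry autotaxin, a secreted lysophospholipase that releases lysophosphatidic acid (LPA). The LPA1, LPA2 and LPA3 tumours came from MMTV-LPA1, MMTV-LPA2 and MMTV-LPA3 mice, which carry one of the receptors for that lipid. In all 4 groups the transgene is driven by the promoter of the mouse mammary tumour virus (MMTV), which is active mainly in mammary epithelium. The labels give no age, parity or strain, and no normal mammary gland was analysed here. Tumour RNA was labelled with Cy5 and total RNA from whole mice with Cy3 on each of the 21 arrays, so every value is a log2 ratio of tumour over whole mouse. A ratio near 0 means about as much signal as in the whole-mouse reference and does not by itself show absence of the transcript. Some values are listed at exactly 0, and without intensities it is not known whether those spots measured any transcript. Epithelial markers such as keratins and Epcam averaged above the reference in 19 of the 20 tumours, with a mean over the tumours of 1.14 ± 0.578 (SD, n = 20). The exception was 1 LPA3 tumour at −0.28, mouse 4. Of the 11 markers averaged, Cdh1 (E-cadherin) lay below the reference in every group mean, from −1.30 in LPA3 to −0.14 in LPA2.

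Oestrogen receptor alpha is a nuclear receptor that takes up oestrogen, binds DNA at oestrogen response elements with the help of pioneer factors such as Foxa1 and Gata3, and recruits coactivators to its target genes. In the mammary gland it is found in a subset of luminal cells, the hormone-sensing cells, and is largely lacking in myoepithelial and milk-secreting alveolar cells. Those cells answer oestrogen and progesterone with paracrine signals, such as amphiregulin and RANK ligand, that make neighbouring cells divide.

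All 11 features carry the same annotated RefSeq transcript, so the annotation does not say which exon or start each reads. RefSeq places Esr1 on the plus strand of mouse chromosome 10 and the table used here, of build GRCm38.p6, holds 2 start windows for it, each from 250 bases before to 50 bases after a start. Both are shown because a probe downstream of both starts would read transcripts from either. They lie at chr10:4611739-4612038 and chr10:4709908-4710207, and capitals mark the core motif GGTCA of an oestrogen response element, searched on both strands.
Esr1 start 1: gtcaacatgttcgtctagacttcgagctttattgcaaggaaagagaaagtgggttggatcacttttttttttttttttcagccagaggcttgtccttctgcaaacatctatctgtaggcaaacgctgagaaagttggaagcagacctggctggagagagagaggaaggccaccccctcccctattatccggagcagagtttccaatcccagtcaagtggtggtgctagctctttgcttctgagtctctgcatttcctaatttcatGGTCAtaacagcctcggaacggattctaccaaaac
Esr1 start 2: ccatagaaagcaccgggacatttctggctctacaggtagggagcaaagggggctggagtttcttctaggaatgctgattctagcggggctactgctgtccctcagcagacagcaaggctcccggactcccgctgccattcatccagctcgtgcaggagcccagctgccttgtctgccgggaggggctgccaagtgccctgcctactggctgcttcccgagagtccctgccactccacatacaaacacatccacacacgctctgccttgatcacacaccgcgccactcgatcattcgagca
The first window had 46.3% G and C and 6 CpG, with 1 GGTCA on the printed strand, which began 15 bases after the start. The second had 59.3% G and C and 12 CpG, and no GGTCA on either strand. GGTCA occurred on one strand or the other in 40.5% of the 32851 windows of the table and in 40.9% of the 88 windows of 61 oestrogen pathway genes, so its presence does not set a window apart. The full palindrome GGTCANNNTGACC was in 23 of all windows (0.07%), in none of the pathway windows and in neither window of Esr1.

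Of the 11 features, 10 gave nearly the same profile over the 20 tumours and 1, feature 22144, gave another. Among the 10, every pair correlated at r = 0.965 to 0.995 over 20 tumours, and at 0.859 to 0.980 after each transgene's mean was subtracted. Feature 22144 correlated with the 10 at −0.0529 to 0.0125. After the transgene means were subtracted it correlated with them at 0.428 to 0.529, so it moved partly with them within a transgene while its group means ran differently. These are correlations of features on the same arrays and share each array's labelling and scaling.

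Each of the 10 features placed the 4 group means in the order ATX, LPA1, LPA2, LPA3. In ATX tumours their means ranged over features from 3.05 (feature 2110) to 3.23 (feature 26592), against −0.24 (feature 26376) to −0.05 (feature 19588) in LPA3 tumours. The difference between ATX and the mean of the receptor transgenes was 2.25 to 2.46 on the log2 scale for the 10.

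Feature 22144 averaged −0.11 ± 0.504 in ATX tumours, 0.32 ± 0.369 in those with LPA1, 0.45 ± 0.619 with LPA2 and 0.14 ± 0.224 with LPA3 (SD, n = 5 per transgene). Its ATX values were 0.01, 0.44, 0.20, −0.36 and −0.84 in mice 1 to 5, and its highest value was 1.52, in LPA2 mouse 2. It was thus near the reference in most tumours and its groups overlapped throughout. Its ATX minus receptor difference was −0.42, opposite in sign to that of the other 10. On 3 arrays it was listed at exactly 0, which no other Esr1 feature was. The table has no signal over background, so whether this feature measured any transcript was not tested.

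A layout of about 10 concordant features and 1 discordant one is not particular to Esr1. The table has 214 genes on 10 or more features, 93 of them on exactly 10 and 69 on 11. Among the 69, Esr1 was 1 of 5 genes with 10 features whose median correlation with the others was above 0.9 and 1 below 0.3, and in 5 others all 11 were above 0.9. By the median correlation between its features Esr1 ranked 26th of the 214. Probe sequences were not analysed here, so it is not known whether the 10 features carry 1 sequence printed repeatedly, in which case they are technical repeats of 1 measurement.

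**Figure D1:**
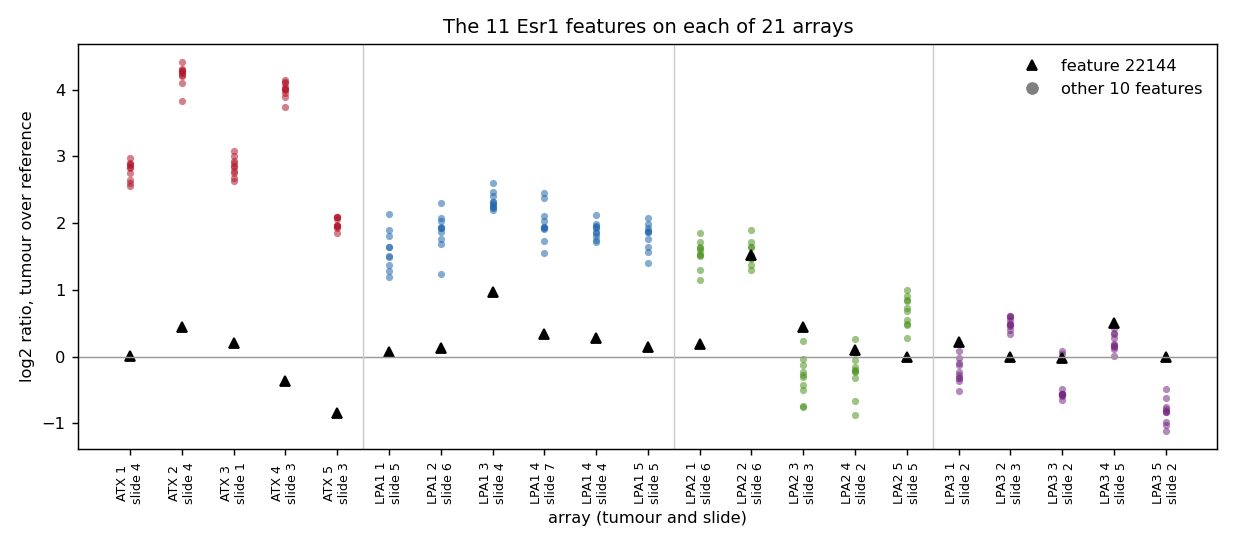
Log2 ratio of tumour over whole-mouse reference for each of the 11 Esr1 features on the 21 arrays, ordered by transgene. The points of 10 features (circles) lie close together on each array, and feature 22144 (triangles, −0.84 to 0.44 in ATX tumours) lies below them in all ATX tumours.

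The concordant features show how far readings of Esr1 differ within 1 array. Within an array the SD of the 10 concordant features was 0.0836 to 0.331 on the log2 scale, with 0.205 pooled over 21 arrays. LPA1 mouse 4 was hybridised on 2 arrays, which gave 1.85 and 1.75 for the mean of the 11 features, a difference of 0.10. Between tumours of the same transgene the SD of the mean of the 10 features was 0.714. The spread between features leaves out any error that a whole array shares.

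In the mean of all 11 features, Esr1 stood above the whole-mouse reference in all ATX and LPA1 tumours, in 3 of 5 LPA2 tumours and in 2 of 5 LPA3 tumours. The ATX tumours of mice 1 to 5 had log2 ratios of 2.53, 3.87, 2.61, 3.60 and 1.74, a mean of 2.87 ± 0.867 (SD, n = 5). Mice 2 and 4 were high and mouse 5 was low within the group. The LPA1 tumours read 1.46, 1.72, 2.21, 1.80 and 1.65, a mean of 1.77 ± 0.276 (SD, n = 5), the narrowest of the 4 groups. The LPA2 tumours read 1.42, 1.55, −0.25, −0.21 and 0.61, a mean of 0.63 ± 0.859 (SD, n = 5). They divided into 2 tumours near the LPA1 level, 2 just below the reference and 1 between. The LPA3 tumours read −0.18, 0.45, −0.41, 0.24 and −0.75, a mean of −0.13 ± 0.486 (SD, n = 5), around the reference. In bulk tumour RNA, fewer Esr1-expressing cells and less Esr1 RNA per cell cannot be told apart.

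The order of the group means was ATX, LPA1, LPA2 and LPA3, and no neighbours in it were separated in every tumour. ATX exceeded LPA1 by 1.10 (2.15-fold), with overlap, since ATX mouse 5 (1.74) lay below LPA1 mice 3 and 4. LPA1 exceeded LPA2 by 1.14 (2.20-fold), and LPA2 mouse 2 (1.55) lay above LPA1 mouse 1. LPA2 exceeded LPA3 by 0.75 (1.69-fold), close to the SD of 0.698 pooled within those groups. Groups further apart in the order did not overlap. ATX exceeded LPA2 by 2.24 (4.74-fold), but the lowest ATX tumour was only 0.19 above the highest LPA2 tumour. ATX exceeded LPA3 by 3.00 (7.98-fold) and LPA1 exceeded LPA3 by 1.89 (3.71-fold). Against the mean of the receptor transgenes ATX was higher by 2.12, or 4.33-fold. These differences are what Esr1 was chosen for and are given as descriptions.

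Averaging feature 22144 with the rest lowers the size of these differences. With the 10 concordant features alone, a set chosen after their values were seen, the means were 3.17 ± 0.924 for ATX, 1.91 ± 0.269 for LPA1, 0.64 ± 0.915 for LPA2 and −0.15 ± 0.525 for LPA3 (SD, n = 5 per transgene). The difference between ATX and the receptor transgenes became 2.37, or 5.16-fold. The order of the groups stayed as it was, and LPA1 and LPA2 no longer overlapped, the lowest LPA1 tumour reading 1.60 and the highest LPA2 tumour 1.55.

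**Figure D2:**
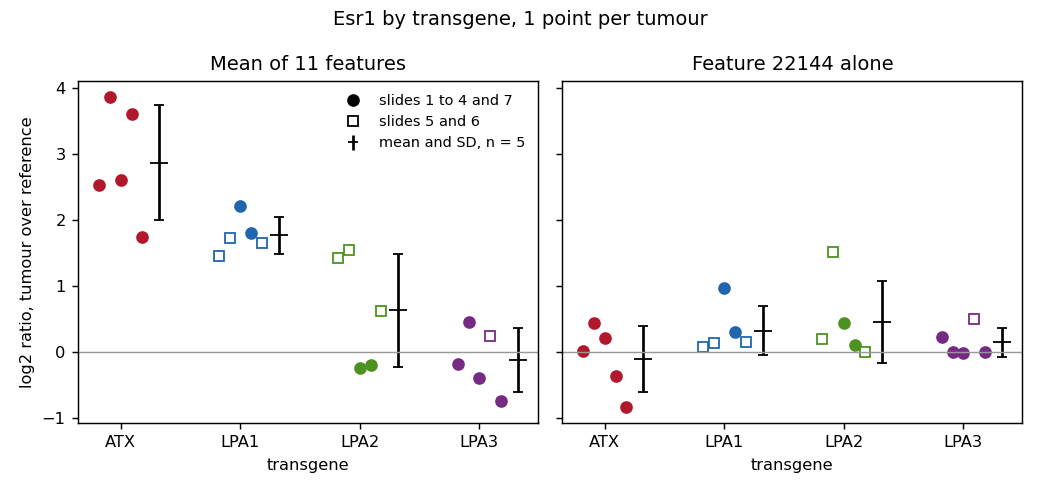
Log2 ratio (tumour over whole-mouse reference) of Esr1 in each tumour as the mean of 11 features (left) and by feature 22144 alone (right), with group mean and SD (n = 5), and open squares for slides 5 and 6. On the left neighbouring transgenes overlap, while the 5 ATX tumours (1.74 to 3.87) all lie above the LPA2 and LPA3 tumours, and on the right all groups overlap.

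By slide set, slides 5 and 6 against the others, Esr1 differed most within LPA2. The array titles place the arrays on numbered slides, and ratios on slides 5 and 6 were narrower, with an SD over all features of 0.825 to 0.903 on 7 arrays against 1.20 to 1.43 on the other 14. No ATX tumour was on slides 5 and 6. The LPA2 tumours on them (mice 1, 2 and 5) had an Esr1 mean of 1.20 ± 0.507 (SD, n = 3), and those on the first 4 slides (mice 3 and 4) −0.23 ± 0.0299 (SD, n = 2). All 3 were higher than both others, so slide set and Esr1 level within LPA2 cannot be told apart. In LPA1 the order was the other way, with 1.61 ± 0.134 (n = 3) on slides 5 and 6 and 2.00 ± 0.289 (n = 2) elsewhere. The single LPA3 tumour on slides 5 and 6 read 0.24, within the range of the other 4 (−0.75 to 0.45). Inside the first 4 slides, transgene and slide also ran together. Slide 2 held no ATX tumour, only LPA2 mouse 4 (−0.21) and LPA3 mice 1, 3 and 5 (−0.18, −0.41 and −0.75). Slide 4 held only ATX mice 1 and 2 and LPA1 mice 3 and 4. Slide 3 held ATX mice 4 and 5, LPA2 mouse 3 and LPA3 mouse 2.

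Slide was not used in choosing Esr1, so its contrast could be tested. Within transgenes Esr1 was 0.51 (SE 0.349) higher on slides 5 and 6, which did not pass limma's test (adjusted p = 0.433), although 1662 of 19069 genes did (8.72%). None of the 11 single features passed either (limma, adjusted p from 0.302 to 0.962), against 7.25% of 45177 features. On slides 1 to 4 alone (5 ATX, 2 LPA1, 2 LPA2 and 4 LPA3 tumours), ATX exceeded the mean of the receptor transgenes by 2.36. Among these slides ATX shared only slides 3 and 4 with receptor tumours, so that value still mixes transgene with slide. With the slide set as a covariate the difference was 2.35, and with each slide as a block it was 2.05.

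Genes whose ratios ran most like Esr1 over the 20 tumours are given as a description, among 18934 genes with a value in every tumour. The highest Pearson r belonged to Hacd3 (0.922), a dehydratase of the elongation of very long fatty acids, and to Slc16a9 (0.920), a member of the monocarboxylate transporter family. Then came Zbtb5 (0.855), Heph (0.845), a copper ferroxidase, Zfp322a (0.837), Rspo1 (0.835), a secreted amplifier of Wnt signalling, and Notch3 (0.827), a Notch receptor. Lrrc75b (0.812), Tspyl1 (0.807) and Sostdc1 (0.80), a secreted antagonist of Wnt and BMP signals, completed the 10. On slides 5 and 6 alone (n = 7) the r of these 10 ranged from −0.479 (Tspyl1) to 0.985 (Slc16a9). The lowest r belonged to Adipor1 (−0.815), a receptor for adiponectin, Plin3 (−0.807), which coats lipid droplets, Tmem181a (−0.805), Vat1 (−0.805) and Acox2 (−0.795), a peroxisomal acyl-CoA oxidase.

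Hacd3 and Slc16a9 followed Esr1 through all 4 groups. Hacd3 read 0.90, 0.99, 0.57, 0.89 and 0.45 in ATX mice 1 to 5, and −0.37, −0.09, −0.21, 0.12 and −0.87 in LPA3 mice. Slc16a9 read 1.45, 2.05, 1.66, 2.09 and 1.75 in ATX mice, and −1.01, −0.40, −0.92, −0.45 and −2.005 in LPA3 mice. For both genes every ATX tumour was above every LPA3 tumour, and LPA3 mouse 5, the lowest for Esr1, was also the lowest for them. Their r stayed at 0.949 and 0.918 over the 13 tumours outside slides 5 and 6, and at 0.745 and 0.685 once transgene means were subtracted. On slides 5 and 6 (n = 7) they were 0.633 and 0.985. Without the 2 tumours farthest from the median of Esr1 they were 0.915 and 0.917. The tumours fall into 4 transgene groups that differ in Esr1, so an r over all 20 partly restates those groups.

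With transgene means subtracted, different genes led. The highest were Tet3 (0.852), which oxidises methylcytosine in DNA, Dlx4 (0.841), a homeobox factor, Nme4 (0.791), Pgbd1 (0.789) and Bbc3 (0.760), which promotes cell death. Eci2, Coil, Hnrnph1, Serf1 and Zfp326 followed, down to 0.750. The lowest were Wipi1 (−0.830), an autophagy protein, Clip1 (−0.827), Cxcl1 (−0.777), a neutrophil-attracting chemokine, Sdc3 (−0.761) and Usp36 (−0.759). None of these 10 highest was among the 10 highest over the tumours as a whole. Without that subtraction, r of the 10 highest within transgenes ranged from −0.785 (Hnrnph1) to 0.807 (Tet3) on slides 5 and 6 (n = 7). Over the 15 receptor tumours it ranged from 0.158 (Zfp326) to 0.884 (Tet3).

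**Figure D3:**
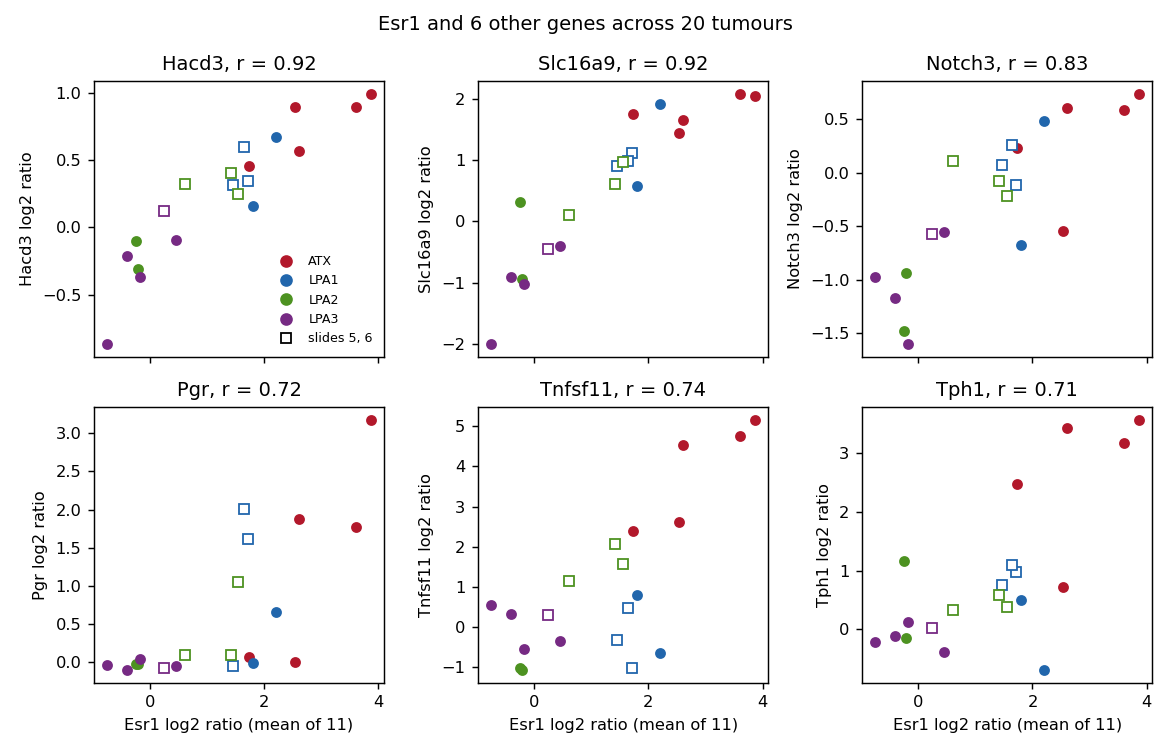
Log2 ratio of 6 genes against that of Esr1 (mean of 11 features) in the 20 tumours, coloured by transgene, with open squares for slides 5 and 6. Hacd3 and Slc16a9 rise with Esr1 across the groups (r = 0.922 and 0.920), while Pgr (r = 0.723) lies near 0 in several tumours of high Esr1.

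Whether genes follow Esr1 inside a transgene does not use the contrast that chose Esr1, and it was tested on all genes with transgene and slide set in the model. The slope is the change in a gene's log2 ratio per log2 unit of Esr1. Of 19068 genes, 1 passed limma's test at an adjusted p under 0.05 (0.00524%), with a negative slope, and 0 had a positive slope that passed. At an unadjusted p under 0.05 there were 1992 genes (10.4%), 7.37% of the total with a negative and 3.07% with a positive slope.

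The gene that passed was Ibsp, bone sialoprotein, a matrix protein of mineralised tissue. Its slope was −0.77 (SE 0.112; limma, adjusted p = 0.0472). Its log2 ratio was far below the reference, with group means of −5.04 ± 0.706 (ATX), −2.80 ± 2.26 (LPA1), −2.17 ± 1.32 (LPA2) and −3.61 ± 1.59 (LPA3; SD, n = 5 per transgene). All 7 tumours on slides 5 and 6 lay between −1.27 and −0.84 and all others between −5.92 and −3.41, so its value moved with the slide set. Its limma adjusted p ranged from 0.00939 to 0.991 over 34 alternatives, and without the slide-set term the slope was 0.05. Leaving out ATX mouse 2 gave an adjusted p of 0.288.

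The next genes by p missed the threshold. With negative slopes these were Krt13 (−0.98), a keratin of stratified epithelium, Ifitm6 (−1.16), Clrn3 (−0.88) and Elmod1 (−0.76), each with a limma adjusted p of 0.0655. With positive slopes they were Pgbd1 (0.88, adjusted p = 0.105), Dlx4 (0.72, 0.113 adjusted), Tet3 (0.51, 0.131 adjusted), Nmur1 (0.51, 0.136 adjusted) and Esx1 (1.61, 0.165 adjusted). Tet3, at 3 features, read 0.06, 0.47, 0.97, 0.62 and 0.73 in LPA1 mice 1 to 5. Its highest LPA1 tumour, mouse 3, was also the highest LPA1 tumour for Esr1.

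The pathway around Esr1 was described by 5 lists of 94 genes, of which 80 were measured. The lists were chosen with earlier results of these data known, so their shares are descriptions and not independent support. Between ATX and the averaged receptor transgenes, 3 of the 80 rose (3.75%) and 0 fell, against 0.0839% of all tested genes called higher and 0.0157% called lower by limma (0.0996% in all). By the F test over the 4 transgenes 1 of the 80 passed, Tnfsf11 (limma, adjusted p = 0.0386), against 0.0315% of all genes. In the slope on Esr1, 0 of the 80 passed, against 0.00524% of all genes, and 13 (16.2%) had an unadjusted p under 0.05, against 10.4%. All 3 called genes belong to the list of hormone-sensing cell and paracrine genes, which is not a set of markers of a single cell type. No receptor relative, target or enzyme passed, and no coregulator.

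Among the receptor relatives, 6 of the 10 measured had a difference above 0, against 45.6% of all genes. Their median was 0.15, against −0.04 over all genes. Esr2, oestrogen receptor beta, on 10 features, stayed near the reference, with group means of −0.08 (ATX), −0.04 (LPA1), 0.10 (LPA2) and 0.13 (LPA3). Its ATX minus receptor difference was −0.14 (SE 0.166; limma, adjusted p = 0.779). Unlike those of Esr1, the 10 Esr2 features did not follow each other (median r 0.0624, all 10 with a median r under 0.3), so their mean says little about the range of Esr2. Esrrb, an orphan receptor related in sequence to the oestrogen receptors, had the largest difference, 1.70 (SE 0.417; limma, adjusted p = 0.131), followed by Pgr at 1.03, Vdr, the vitamin D receptor, at 0.44, and Gper1, a membrane receptor, at 0.44. Esrrb gained the call without ATX mouse 1 (2.07; limma, adjusted p = 0.0292), and had 1.12 with slide as a block. Gper1 had 0.12 with that block, and Vdr had 0.15 with slide set as a covariate and 0.20 without ATX mouse 1.

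Pgr, the progesterone receptor, is the classic target of oestrogen receptor alpha in mammary epithelium. Its log2 ratio was 0.00, 3.18, 1.88, 1.77 and 0.06 in ATX mice 1 to 5, and −0.04, 1.61, 0.65, −0.01 and 2.01 in LPA1 mice. In LPA2 mice it was 0.09, 1.05, −0.03, −0.02 and 0.10, and in LPA3 mice it lay between −0.11 and 0.04. Pgr thus lay clear of 0, at 0.65 to 3.18, in 3 ATX tumours, 3 LPA1 tumours and 1 LPA2 tumour, whose Esr1 ratios were all 1.55 or higher. Among other tumours with high Esr1, LPA1 mouse 4 (1.80) read about 0, and both Pgr features of ATX mouse 1 (2.53) were listed at exactly 0. Over the 20 tumours r with Esr1 was 0.723. The ATX minus receptor difference was 1.03 (SE 0.415; limma, adjusted p = 0.310). It was 0.58 without ATX mouse 2 and 1.86 with exact zeros set to missing, and neither value passed. In the model with slide set, the slope within transgenes was 0.66 (SE 0.283; limma, adjusted p = 0.422).

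The coregulators and pioneer factors stayed close to the background. In ATX 11 of 20 were higher, against 45.6% of all genes, with a list median of 0.05. The exceptions in size were Cited1, a coactivator of oestrogen receptor alpha, at 2.31 (SE 0.476; limma, adjusted p = 0.0668), Gata3 at 1.85 (adjusted p = 0.174) and Tfap2c at 1.49 (adjusted p = 0.174), both transcription factors of luminal cells, and Foxa1 at 1.02 (adjusted p = 0.478). Cited1 gained the call without ATX mouse 1 (limma, adjusted p = 0.00348) or ATX mouse 5 (0.0458 adjusted). Foxa1 had 0.55 with slide set as a covariate and 1.55 without ATX mouse 1. Gata3 read 3.11, 3.39, 3.75, 3.89 and 1.27 in ATX mice, and its 15 receptor tumours ranged from −2.05 to 2.54. Foxa1 read −0.99, 2.03, 1.99, 2.22 and 0.41 in ATX mice, and its highest value of all, 3.09, was in LPA2 mouse 3, where Esr1 was −0.25. A high ratio of Foxa1 therefore did not always come with a high ratio of Esr1. Coactivators of general use, such as Ncoa1 (−0.24), Ncoa2 (0.06), Ncoa3 (−0.02) and Ep300 (0.12), differed little between ATX and the receptor transgenes. Other members of the list differed more, such as Ddx5 at 0.46 (limma, adjusted p = 0.235) and Phb2 at −0.58 (adjusted p = 0.266).

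Of 28 measured target genes, 16 had a difference above 0 (list median 0.03), against 45.6% of all genes, and 0 passed. Prss23, a secreted serine protease, had a difference of 1.43 (SE 0.306; limma, adjusted p = 0.0763), Stc2, the glycoprotein stanniocalcin 2, 1.72 (adjusted p = 0.266), and Cxcl12, a chemokine, 1.46 (adjusted p = 0.152). Hspb8, a small heat shock protein, was the lowest at −1.60 (adjusted p = 0.314). With slide as a block Stc2 had 0.79 and Hspb8 −0.78, and Cxcl12 gained the call without ATX mouse 1 (limma, adjusted p = 0.0393). Greb1, a coactivator and target of the receptor in human breast cancer cells, had 0.93 (adjusted p = 0.572), Ccnd1, cyclin D1, 0.56, Myc 0.21 and Xbp1 0.04. The target list thus did not move as a group with Esr1 between transgenes. Within transgenes 4 of the 28 had a positive and 5 a negative slope at an unadjusted p under 0.05, against 3.07% and 7.37% of all genes, and 0 passed after adjustment. Stc2 had a slope of 1.22 (limma, adjusted p = 0.317) and Hspb8 of −1.36 (adjusted p = 0.235).

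Of the 5 pathway lists, the hormone-sensing and paracrine list had the median farthest from the background, 1.60 against −0.04 over all genes. In 11 of its 14 measured genes ATX was the higher side, against 45.6% of all genes. Marker lists of other cells also lay away from the background, such as liver at −1.54, skeletal muscle at −1.33 and basal cells at 0.71. Tnfsf11, RANK ligand, which carries the progesterone signal to neighbouring cells, rose by 3.74 (SE 0.521; limma, adjusted p = 0.0122). It read 2.61, 5.17, 4.53, 4.75 and 2.39 in ATX mice and −1.07 to 2.06 in the 15 receptor tumours, with no overlap. Tph1, which makes serotonin from tryptophan, rose by 2.39 (SE 0.362; limma, adjusted p = 0.0154), although ATX mouse 1 (0.73) lay within the range of the receptor tumours. Both lost the call when ATX mouse 2 (adjusted p = 0.0657 and 0.106) or ATX mouse 4 (0.0526 and 0.0870 adjusted) was left out, on slides 1 to 4 alone (0.109 and 0.191 adjusted) and with slide as a block (0.238 adjusted for each). In these settings the differences stayed at 3.42 to 4.09 for Tnfsf11 and 2.17 to 2.57 for Tph1.

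Sostdc1 rose by 3.69 (SE 0.703; limma, adjusted p = 0.0465), from a mean of −2.62, −2.60 and −4.05 in LPA1, LPA2 and LPA3 tumours to 0.60 in ATX tumours. It kept the call in 11 of 31 alternatives, with adjusted p up to 0.421 and differences of 3.30 to 4.25 where the call was lost. Leaving out ATX mouse 2 (0.240 adjusted) or ATX mouse 4 (0.228 adjusted) was among those. ATX mouse 1, at −2.18, lay among the receptor tumours. Id4, an inhibitor of DNA binding, had a difference of 3.16 (adjusted p = 0.125) and Wnt4, a paracrine target of progesterone, 1.80 (adjusted p = 0.160). With slide set as a covariate Id4 had 4.17 and passed (limma, adjusted p = 0.0181), as it did without ATX mouse 1 (0.0483 adjusted). Within transgenes the slope of Tnfsf11 on Esr1 was 1.03 (SE 0.299; limma, adjusted p = 0.267), that of Sostdc1 1.15 (adjusted p = 0.400) and that of Tph1 0.07 (adjusted p = 0.952).

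Of the 12 measured enzymes that make or break down oestrogens, 9 had a difference below 0, with a median of −0.14, and 0 passed. Over all genes 45.6% lay above 0 and the median was −0.04. Hsd17b2, which oxidises oestradiol to oestrone, had −1.59 (SE 0.580; limma, adjusted p = 0.267), Sult1e1, oestrogen sulphotransferase, −0.94 (adjusted p = 0.188), Hsd3b1 −0.71 (adjusted p = 0.416) and Cyp1a1 0.41 (adjusted p = 0.866). No ATX tumour was on slides 5 and 6, and these values changed once slide was in the model. With slide set as a covariate they were −0.64 for Hsd17b2, −0.26 for Hsd3b1 and 0.83 for Cyp1a1, and with slide as a block −0.41 for Sult1e1. Cyp1a1 ranged from 0.10 to 0.84 with 1 tumour left out, the ends being without ATX mouse 3 and ATX mouse 4. The list is small and these genes lay below the whole-mouse reference in ATX tumours, at −3.11, −1.88, −2.71 and −1.27. List genes that were not counted as measured were not analysed here.

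**Figure D4:**
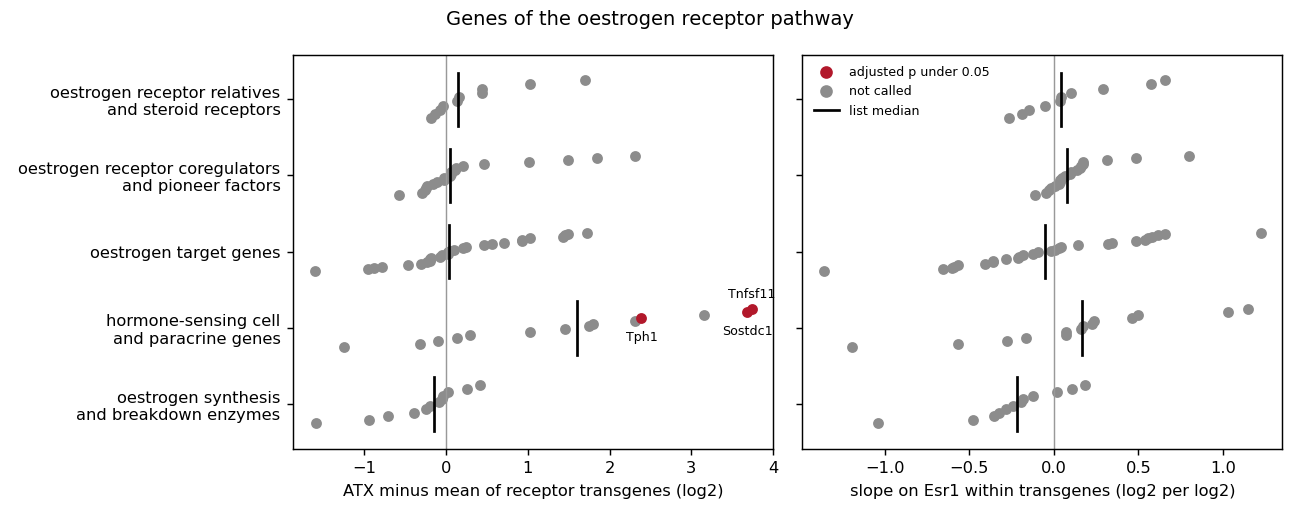
Each point is 1 gene of the 5 oestrogen pathway lists, with the ATX minus receptor difference (left, log2) and the slope on Esr1 within transgenes (right, log2 per log2 unit), and black bars at list medians. The list of hormone-sensing cell and paracrine genes is centred at 1.60 on the left and holds all 3 genes called, and no gene is called on the right.

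Ratios of markers of other cells ran with Esr1 in part, though none passed after adjustment, and their share in its values was not tested. Between transgenes, the mean ratio of 10 alveolar markers was 3.59 ± 0.795 (ATX), 2.73 ± 1.37 (LPA1), 1.86 ± 0.843 (LPA2) and 2.43 ± 1.17 (LPA3; SD, n = 5 per transgene), with overlap. The 11 epithelial markers were at 1.44 ± 0.265, 0.98 ± 0.532, 1.10 ± 0.327 and 1.02 ± 0.982, so they did not follow the order of Esr1. The 10 basal and myoepithelial markers were at −0.01 ± 0.240, −0.61 ± 0.823, −0.20 ± 0.534 and −1.46 ± 0.652, with 9 of 10 higher in ATX (median difference 0.71) and a median r with Esr1 of 0.42, against 0.30 for the alveolar list. All 8 liver and all 9 muscle markers were lower in ATX, with median differences of −1.54 and −1.33. Both lists averaged far below the whole-mouse reference (−2.83 and −2.23 over 20 tumours). Without intensities it is not known what those spots measured in the tumours. Within transgenes all 10 fibroblast markers had a negative slope on Esr1 (median −0.51, 5 at an unadjusted p under 0.05), as did all 9 skeletal muscle markers (median −0.62, 6 at that level), all 8 liver markers (median −0.41, 7) and 8 of 9 adipocyte markers (median −0.84, 4). All 9 cell division genes had a positive slope (median 0.28, 0 at that level). So did 7 of 10 alveolar markers (median 0.37), with 3 at that level, the caseins Csn2, Csn3 and Csn1s1. Of 11 epithelial markers 8 were positive (median 0.215, 1 at that level), and of 10 basal markers 6. Slopes were negative in 9 of 10 endothelial (median −0.21, 1), 5 of 6 macrophage (median −0.44, 3) and 6 of 8 T and B cell markers. Over all genes 54.9% of slopes were negative and the median was −0.03, with 7.37% negative and 3.07% positive at an unadjusted p under 0.05. None of these markers passed after adjustment, against 0.00524% of all genes. Some of these lists also lay apart by slide set, for instance liver markers at −1.04 ± 0.156 (SD, n = 7) on slides 5 and 6 and −3.79 ± 0.455 (SD, n = 13) elsewhere.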

How the data were processed

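The values used are the authors' deposited log2 ratios, 1 per feature and array, of 21 Agilent 2-colour arrays. Per the labels, tumour RNA from a Qiagen RNeasy kit carried Cy5 and whole-mouse RNA Cy3, without a dye swap, so each ratio may hold its probe's dye bias. The scanner processing and normalization are not given in the sources used here. Nor is the log base, which the range of the values led to be taken as 2. Direction follows from the dyes, and every array had a median of 0. The table holds no intensities, so no filter on dim features was possible, and precision is limited by how many arrays there are.

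The platform annotation gave 1 symbol for 33653 features, several for 56 (left out) and none for 11511. Of the named features, 33517 were matched to RefSeq by gene number. Features of a gene were averaged, which gave 19087 genes. A gene was tested with a value in at least 4 tumours of every transgene, which left 19069. Both arrays of LPA1 mouse 4, on slides 7 and 4, were averaged, so the tumour was 1 replicate. The slide-set contrast, the fits with slide as a block and those on slides 1 to 4 used only its slide 4 array.

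The fit (lmFit, then eBayes, of limma 3.58.1 in R 4.3.3) held all 20 tumours with 1 mean per transgene. The slope on Esr1 and the slide contrast used a model with transgene and slide set (slides 5 and 6 against the others). Calls were made at an adjusted p under 0.05 (Benjamini-Hochberg, over every gene tested). Both fits were tested on simulated data with independent normal noise and no slide effect. Of 100 genes changed by 1 log2 unit in ATX, 39 were called, and of 100 changed by 2 units, 92. For slopes of 1 and 2 on Esr1, 58 and 98 of 100 were called. In each comparison 8 unchanged genes were called. A gene that did not pass was therefore not shown to be unchanged. Correlations, sequences and figures used Python 3.11.15, numpy 2.4.6, pandas 2.3.3 and matplotlib 3.10.9.

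The genes named are the 10 of highest and 5 of lowest r with Esr1 (and likewise within transgenes), the 5 of smallest p for each sign of the slope, and of each pathway list those called plus up to 4 of largest difference. Prss23, Wnt4, Esr2, Greb1, Ccnd1, Myc, Xbp1, Ddx5, Phb2, the other coactivators and the caseins were named besides after their values were seen. Esr1, the lists and the tests were chosen with earlier results of these data known. The labels do not give separate litters or batches, and p-values measure the spread between tumours.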

Additional observations from a re-analysis of the deposited data

Results flagged for a closer look

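Some readings of single Esr1 features stood apart from the rest of their group. Feature 19588 read −0.98 in LPA3 mouse 5, against 0.03 to 0.33 in the other 4 LPA3 tumours. Feature 33571 read 2.40 in LPA1 mouse 3, against 1.76 to 1.89 in the other LPA1 tumours, and feature 22144 read 0.96 in the same tumour, against 0.07 to 0.30. In each the gap to the nearest tumour exceeded Dixon's 95% value for 5 samples, 0.71 of the group's range (0.773, 0.802 and 0.737). In all, 52 groups were tested and 3 exceeded it, and chance gives about 1 in 20 for a single group. The groups repeat the same tumours over features that follow each other, so they are not independent and the flags are descriptions only. LPA1 mouse 3 and LPA3 mouse 5 were also the highest and the lowest of their groups in the mean of the 11 features (2.21 and −0.75), where neither passed that rule.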

How the results depend on the processing

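The Esr1 difference between ATX and the receptor transgenes, 2.12, was 1.73 to 2.39 under the alternatives for scaling, slides, zeros, features' median and repeat array, and 1.87 to 2.40 with any 1 tumour left out. It reversed only for feature 22144 alone, to −0.42; each of the other 10 features alone kept its sign. The 10 genes most like Esr1 shared 5 with the 10 by Spearman's rho.

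The counts of called genes were far less stable. The main fits called 6 genes across the 4 transgenes, 19 between ATX and the receptor transgenes, 1 for the slope on Esr1 and 1662 between the slide sets (limma). With slide set as a covariate the first 2 counts became 15 and 28. With slide as a block they were 0 and 0 (1050 and 1489 with p under 0.05 before adjustment), as they were for slides 1 to 4 alone (1783 and 1247). Array weights gave 4409 and 3232. The count across transgenes was 1 with scaled ratios, 3 with the median of probes, 3 with the repeat array alone and 18 with single features. The count for ATX was 10 with the repeat array, 29 with the first array and 45 with single features. The slope count was 0 with slide as a block, slides 1 to 4, array weights, scaled ratios, the median of probes, either array alone, single features or no slide-set term (1196 to 2155 with p under 0.05 before adjustment, single features aside), 6 with zeros set to missing, and, in settings added after the data were seen, 3 without LPA2 tumours, 0 without ATX tumours and 1 with 10 features. The slide-set count was 854 with scaled ratios. With 1 tumour left out, the counts ranged from 0 to 37, 0 to 116, 0 to 7 and 1137 to 2018. The count for ATX was 0 without ATX mouse 2 (1535 before adjustment), 1 without ATX mouse 4 and 116 without ATX mouse 1, and the slope count was 7 without ATX mouse 1. The cause was not tested.

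Mouse numbers recur in each transgene, and no label says that they pair tumours. Deviations of 30 same-number pairs from their group means correlated at −0.355 to 0.319, above 0.1 in 9. The 9 include all LPA1 and LPA2 pairs (0.104 to 0.319), which also share the slide set, so the numbers were not taken to pair the tumours. With the mouse number as a replicate block the 4 counts were 2, 16, 0 and 1049, and Sostdc1 lost its call (adjusted p = 0.0701).

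Among single genes, Cyp1a1 reversed to −0.66 with array weights and the slope of Ibsp to 0.053 without the slide-set term. Of 589 values for 19 named genes in the ATX comparison, 541 kept direction and call, 28 lost the call and 19 gained it. Of 337 slopes for 10 genes, 299 kept both, 27 lost the call and 10 gained it. No depth or signal over background is in the table.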
